A study of Mus musculus with 18 samples.

Results

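C/EBPα and PU.1 binding was compared at 3 hr post-induction (hpi) in C10 cells, using the 2 ChIP-seq libraries of that time point out of 18 in the series. C10 is a derivative of the HAFTL mouse pre-B cell line that carries a C/EBPα-estrogen receptor fusion tagged with GFP (C/EBPαER-GFP), and β-estradiol (β-Est) moves the fusion protein into the nucleus. Both libraries came from cells given β-Est, IL-3, and CSF-1 for 3 h, precipitated with antibodies to C/EBPα or to PU.1 and sequenced as 36-base reads. Uninduced cells (0 h) carry the fusion as well, and per the labels controls received the solvent ethanol. In this 1 cell line the C/EBPα antibody reads the introduced fusion together with any endogenous protein, whereas PU.1 is the product of the cell's own gene, called Sfpi1 in the annotation used here. The libraries hold no measure of expression, so the pre-B cell identity was not checked against marker genes.

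The compared units were 200-bp bins of chromosomes 1 to 19 of mm9. A bin was kept when 1 of the libraries, brought to the same depth, had at least 8 reads in it, which left 72379 of 12361722 bins. Each bin was called higher for C/EBPα or higher for PU.1 at a 4-fold difference in reads, and its counts were called like when they differed by at most 2-fold. The C/EBPα library held 10842274 reads on these chromosomes after removal of repeated positions and was thinned to the 6414863 of the PU.1 library, which had been prepared with a modified protocol per the labels. Each factor had a single library at each time, and there was no control library. Differences are therefore given as values without a test, and the 95% intervals (exact Poisson for counts, exact Clopper-Pearson for shares) cover counting error only. Bins are not replicates, and touching bins can lie under 1 peak.

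C/EBPα is a basic leucine zipper factor that drives myeloid differentiation and binds sites such as TTGCGCAA as a dimer with itself or with relatives such as C/EBPβ. PU.1 is an ETS family factor of both B cells and myeloid cells that binds a purine-rich sequence around GGAA, typically GAGGAAGT, and that is required for macrophages. Macrophage genes are known for regulatory regions that both factors occupy, and PU.1 is also needed in early B cells.

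The strongest bins of each class show the sequence behind the counts. For the 2 first-ranked bins of each class, the + strand of mm9 is printed 5′ to 3′, and capitals mark any of 10 searched words on either strand. The words were the C/EBP word TTGCNNAA, its palindrome TTGCGCAA, the C/EBP-ATF composite TTGCATCA, the PU.1 word GAGGAAGT, the ETS core AGGAAG (contained in the PU.1 word), the PU.1-IRF composite GGAANNGAA, the AP-1 word TGACTCA, the RUNX word TGTGGTT, the EBF1 word TCCCNNGGG, and the E-box CAGCTG. A match is a description of the letters and does not show that a factor sat there. Slc7a5 and Myb were the nearest genes of the bins higher for C/EBPα, 9830001H06Rik and Siglecg of those higher for PU.1, and Idh2 and Gm885 of those with like counts.
Slc7a5 chr8:124443801-124444000: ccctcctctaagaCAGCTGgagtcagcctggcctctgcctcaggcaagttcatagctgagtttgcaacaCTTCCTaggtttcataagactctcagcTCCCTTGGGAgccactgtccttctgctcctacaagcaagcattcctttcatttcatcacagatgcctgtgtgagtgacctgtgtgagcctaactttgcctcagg
Myb chr10:20866201-20866400: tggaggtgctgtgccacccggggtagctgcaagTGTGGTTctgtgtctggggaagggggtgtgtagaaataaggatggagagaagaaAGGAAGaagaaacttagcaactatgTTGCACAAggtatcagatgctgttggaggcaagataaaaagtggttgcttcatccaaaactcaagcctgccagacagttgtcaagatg
9830001H06Rik chr2:156889201-156889400: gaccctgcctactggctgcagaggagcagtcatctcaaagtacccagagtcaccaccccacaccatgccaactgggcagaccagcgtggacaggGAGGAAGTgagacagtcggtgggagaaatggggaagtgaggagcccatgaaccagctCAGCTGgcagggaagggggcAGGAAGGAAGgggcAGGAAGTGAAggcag
Siglecg chr7:50647801-50648000: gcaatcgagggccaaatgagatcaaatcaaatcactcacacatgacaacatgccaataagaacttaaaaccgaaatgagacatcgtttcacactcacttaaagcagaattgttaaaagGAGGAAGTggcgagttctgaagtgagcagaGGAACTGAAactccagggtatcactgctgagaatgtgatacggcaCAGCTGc
Idh2 chr7:87219801-87220000: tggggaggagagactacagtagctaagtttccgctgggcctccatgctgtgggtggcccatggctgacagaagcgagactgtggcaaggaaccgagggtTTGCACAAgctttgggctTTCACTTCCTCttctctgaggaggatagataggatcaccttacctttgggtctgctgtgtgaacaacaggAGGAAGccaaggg
Gm885 chr11:106620401-106620600: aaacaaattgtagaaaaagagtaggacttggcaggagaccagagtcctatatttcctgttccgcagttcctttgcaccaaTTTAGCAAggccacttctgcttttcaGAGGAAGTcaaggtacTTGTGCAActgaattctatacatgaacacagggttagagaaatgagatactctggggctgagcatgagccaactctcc
The Myb bin held the C/EBP word TTGCACAA at base 113. The Slc7a5 bin, with the highest C/EBPα count among the named bins, held neither the C/EBP nor the PU.1 word. Both PU.1 bins held GAGGAAGT, at base 95 in the 9830001H06Rik bin and at base 119 in the Siglecg bin. The Idh2 and Gm885 bins held both words, at bases 100 and 121 in the former and at bases 123 and 107 in the latter, where a further C/EBP word began at base 81.

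PU.1 had more bins than C/EBPα at the same depth. Of the 72379 bins, 40944 were higher for PU.1 (56.6%), 13772 were higher for C/EBPα (19.0%), 7784 had like counts (10.8%), and 9879 lay between. These shares are set by the minimum and the folds of the comparison and describe it. Member bins took up 18.1% of the PU.1 reads and 8.57% of the C/EBPα reads, shares that describe the chosen bins. When C/EBPα was thinned to have as many reads outside member bins as PU.1, 11649 bins were higher for C/EBPα and 42309 for PU.1.

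The median bin higher for C/EBPα had 14 C/EBPα reads and 1 PU.1 read, and the median bin higher for PU.1 had 1 C/EBPα read and 14 PU.1 reads. Bins with like counts had a median of 10 reads of each factor. No PU.1 read was found in 3565 of the bins higher for C/EBPα, and no C/EBPα read in 11986 of the bins higher for PU.1. The 4-fold rule favors such bins, so these numbers describe the choice. The mean of PU.1 in bins higher for C/EBPα was 3.64 times its mean over all bins, and 2.68 times at 0 h. For C/EBPα before thinning, in bins higher for PU.1, it was 3.34 times, and 2.36 times at 0 h. The C/EBPβ library of 0 h stood at 2.97 times in the latter bins. How much of these values is binding of the other factor was not tested. At the limits of the classes, 813 bins were exactly 4-fold higher for C/EBPα and 1548 between 3-fold and 4-fold, against 1947 and 3113 for PU.1. As their larger count, 10483 member bins had exactly 8 reads, and 14725 bins outside the comparison had exactly 7.

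**Figure D1:**
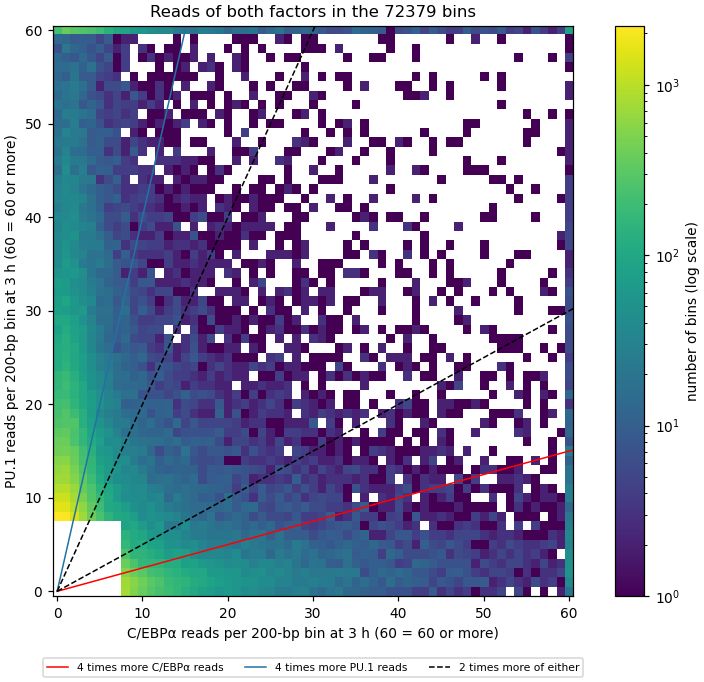
Number of 200-bp bins (color, log scale) by C/EBPα reads (x axis) and PU.1 reads (y axis) at 3 h after thinning, with counts of 60 or more placed at 60. The lines mark 4-fold and 2-fold differences, and the 72379 bins crowd along both axes, with fewer in the area of like counts.

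Reads of the C/EBPα library that the thinning had left over did not enter the choice of bins but come from the library that did. At the same depth they averaged 18.1 reads per bin higher for C/EBPα, beside 19.7 for the reads that chose the bins. The left-over reads averaged 1.92 per bin higher for PU.1 and 12.8 per bin with like counts.

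Part of the bins had reads of both factors. At least 8 reads were reached by C/EBPα in 25081 of all 12361722 bins, by PU.1 in 54858, and by both in 7560. The last are 30.1% (29.6%–30.7%) of the C/EBPα bins and 13.8% (13.5%–14.1%) of the PU.1 bins. Both shares were far above the part of all bins that reached 8 reads of the other factor. The strongest bins are described by the same counts that chose them, and a bin with 8 or more reads of both factors can still be higher for 1 of them. Of the 1000 bins with the most C/EBPα reads (54 or more), 578 had 8 or more PU.1 reads (57.8%, 54.7%–60.9%), with a median of 10. Of the 1000 bins with the most PU.1 reads (91 or more), 369 had 8 or more C/EBPα reads (36.9%, 33.9%–39.98%), with a median of 5. The lists of the 1000 strongest bins of each factor had 58 bins in common, and the lists of the 10000 strongest had 1356.

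Bins of 1 factor often had the other factor close by. Within 1000 bp, start to start, 28.9% (28.1%–29.6%) of the bins higher for C/EBPα had a bin with at least 8 PU.1 reads, beside 2.99% of all bins. Within 10000 bp this share was 68.4% (67.6%–69.1%), beside 19.1%. For bins higher for PU.1, a bin with at least 8 C/EBPα reads lay within 1000 bp in 14.1% (13.7%–14.4%), beside 1.40% of all bins, and within 10000 bp in 39.0% (38.5%–39.5%), beside 9.51%.

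Both classes lay mostly in introns and between genes, and bins higher for PU.1 were more often at promoters. Bins within 1000 bp of a protein-coding transcription start site (TSS) made up 8.98% (8.50%–9.46%) of those higher for C/EBPα, 14.2% (13.9%–14.6%) of those higher for PU.1, 14.8% (14.0%–15.6%) of those with like counts, and 2.36% of all bins. Introns held 44.6% of the bins higher for C/EBPα and 41.9% of those higher for PU.1, against 35.7% of all bins. The median distance to a TSS was 18550 bp for C/EBPα, 16389 bp for PU.1, and 54350 bp over all bins. The median GC content was 46.5%, 47%, and 42%, respectively, and words were therefore also set beside bins of the same GC content. The share of bins higher for C/EBPα was between 16.9% (chromosome 11) and 20.9% (chromosome 10), and the share higher for PU.1 between 53.6% (chromosome 5) and 61.9% (chromosome 12).

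The sequences of the classes matched the factor that had chosen them, although the rule did not use sequence. The C/EBP word TTGCNNAA was present in 35.6% (34.8%–36.4%) of the bins higher for C/EBPα, 7.30% (7.05%–7.55%) of those higher for PU.1, and 9.28% of all bins. At the same GC content, bins higher for C/EBPα held it 4.44 times as often as other bins and those higher for PU.1 0.93 times. The PU.1 word GAGGAAGT was present in 19.1% (18.7%–19.4%) of the bins higher for PU.1, 1.31% (1.12%–1.51%) of those higher for C/EBPα, and 1.20% of all bins. The ETS core AGGAAG, which many ETS factors recognize, was in 52.8% (52.3%–53.3%) of the bins higher for PU.1 and 25.4% (24.6%–26.1%) of those higher for C/EBPα, beside 21.3% of all bins. Each class thus held the word of its own factor well above the share of all bins and that of the other factor close to it.

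Bins with like counts stood between the classes for both words. They held the C/EBP word in 17.5% (16.7%–18.4%) and the PU.1 word in 7.55% (6.98%–8.16%). Both words together were in 130 of these bins (1.67%, 1.40%–1.98%), in 536 bins higher for PU.1 (1.31%), in 69 bins higher for C/EBPα (0.501%), and in 0.0862% of all bins. Neither word was found in 63.6% (62.8%–64.4%) of the bins higher for C/EBPα, 74.96% (74.53%–75.4%) of those higher for PU.1, and 76.6% (75.6%–77.5%) of those with like counts. Over all bins this share was 89.6%.

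**Figure D2:**
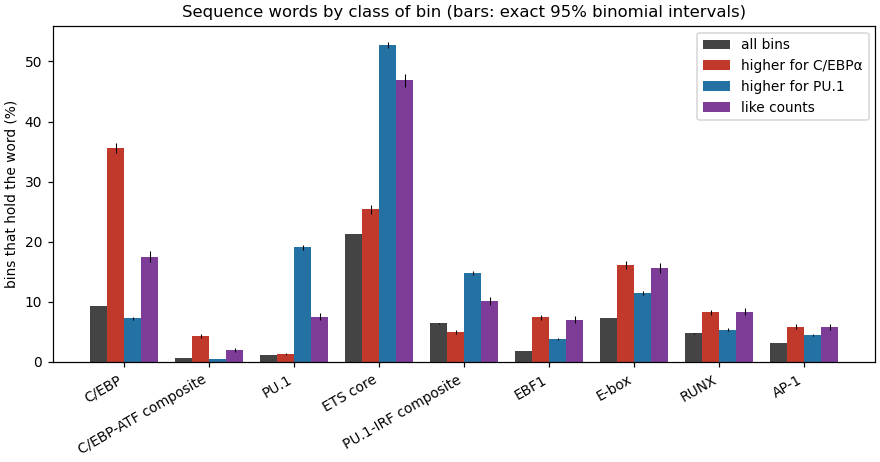
Share of bins (y axis, percent) that hold each word, over all bins and in the 3 classes, with exact 95% binomial intervals. The C/EBP word stands at 35.6% in bins higher for C/EBPα, and the PU.1 word at 19.1% in bins higher for PU.1.

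How far the C/EBP word exceeded its share of all bins differed with its 2 middle bases. The palindrome TTGCGCAA was in 295 bins higher for C/EBPα (2.14%, 1.91%–2.40%), 132 times its share of all bins, and in 5 bins higher for PU.1. Only 1941 bins in all held it. TTGCGTAA was in 301 bins higher for C/EBPα, 52.3 times its share of all bins, and TTGCGAAA in 236, 30.6 times. TTGCACAA was found most often, in 1061 bins (7.70%, 7.26%–8.16%), 12.6 times its share of all bins. TTGCTGAA and TTGCAGAA, at 1.03 and 1.32 times, were close to their share of all bins. The same order was not seen in bins higher for PU.1, where TTGCGCAA, TTGCGTAA, and TTGCACAA stood at 0.753, 0.409, and 0.816 times their share of all bins.

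The PU.1 word differed likewise with the 2 bases before GGAAGT. GCGGAAGT was 18.8 times as frequent in bins higher for PU.1 as in all bins (495 bins), GAGGAAGT 15.9 times (7803 bins), and GGGGAAGT 9.46 times (2604 bins). Beside bins of the same GC content the order of the first 2 turned, with 9.95 times for GCGGAAGT, 13.7 times for GAGGAAGT, and 7.62 times for GGGGAAGT. ATGGAAGT and TTGGAAGT were at 0.914 and 0.789 times their share of all bins.

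Words of other factors known from blood cells were distributed unequally between the classes. The PU.1-IRF composite GGAANNGAA, at which PU.1 is known to recruit the interferon regulatory factors IRF4 and IRF8, was in 14.8% (14.4%–15.1%) of the bins higher for PU.1, 5.00% (4.64%–5.37%) of those higher for C/EBPα, and 6.398% of all bins. The C/EBP-ATF composite TTGCATCA, bound by dimers of C/EBP and ATF4, was in 4.32% (3.99%–4.67%) of the bins higher for C/EBPα, 0.489% (0.423%–0.561%) of those higher for PU.1, and 0.617% of all bins. The EBF1 word TCCCNNGGG, of the B cell factor EBF1, was 2.60 times as frequent in bins higher for C/EBPα as in bins of the same GC content (7.43%), 1.21 times in bins higher for PU.1 (3.82%), and 2.00 times in bins with like counts (7.05%). RUNX words stood at 8.24%, 5.37%, and 8.34% in these classes, beside 4.73% of all bins. The AP-1 word was at 5.85%, 4.48%, and 5.79%, beside 3.14%, and the E-box of E2A and its relatives at 16.1%, 11.5%, and 15.6%, beside 7.37%. Against bins of the same GC content, the E-box was 1.64 times as frequent in bins higher for C/EBPα, 1.13 times in bins higher for PU.1, and 1.42 times in like bins.

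Stronger bins held the word of their factor more often. Among bins higher for C/EBPα, the C/EBP word was in 54.2% (49.7%–58.6%) of the 500 strongest (60 to 160 reads), in 40.5% (39.1%–42.0%) of the next 4500, and in 32.1% (31.1%–33.1%) of the rest. Among bins higher for PU.1, the PU.1 word was in 43.6% (39.2%–48.1%) of the 500 strongest (109 to 254 reads), in 25.6% (24.4%–26.9%) of the next 4500, and in 17.9% (17.5%–18.3%) of the rest.

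Reads around the words are given as a description, since the bins were chosen for their reads at 3 h and any position inside them stands above its surroundings. To compare libraries of unequal depth, their reads were normalized to 10000000 per library, here called normalized reads. In the 4230 bins higher for C/EBPα that held 1 C/EBP word, C/EBPα at 3 h averaged 4.74 normalized reads per 20 bp at the word and 0.359 at the far ends of the window around it. At the 179 PU.1 words of this class, C/EBPα averaged 4.16 and 0.385. In the 7533 bins higher for PU.1 with 1 PU.1 word, PU.1 averaged 5.44 at the word and 0.252 at the ends. At the 2843 C/EBP words of this class, PU.1 averaged 3.34 and 0.327, so that each factor stood above the ends at the word of the other as well. In like bins, chosen for reads of both factors, C/EBPα averaged 3.90 and PU.1 3.19 at the 1254 C/EBP words, and 3.34 and 4.16 at the 577 PU.1 words.

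The PU.1 libraries of 0 and 48 h had no part in the choice, but each class was chosen for few reads of the other factor at 3 h. This held for the bin and not for the ends of the window. It can lower the values at the word in other libraries of that factor, which was not tested. At the C/EBP words of the bins higher for C/EBPα, PU.1 averaged 0.222 at the word and 0.248 at the ends at 0 h, and 0.409 and 0.280 at 48 h. At the PU.1 words of this class it averaged 0.487 and 0.265 at 0 h, and 1.09 and 0.302 at 48 h. C/EBPα at 48 h, at the PU.1 words of the bins higher for PU.1, averaged 0.339 at the word and 0.166 at the ends.

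**Figure D3:**
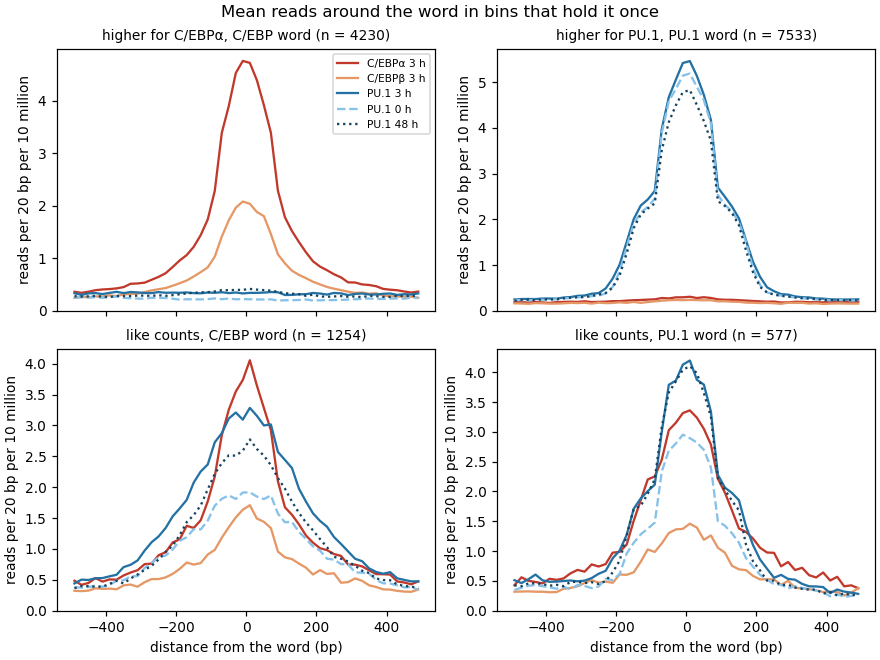
Mean reads per 20 bp (y axis, normalized to 10000000 reads per library) by distance from the word (x axis, bp) in bins that hold it once, for 5 libraries. The bins were chosen on the 3 h libraries of C/EBPα and PU.1, which fixes the height of these curves. PU.1 at 48 h stands at 0.409 at the C/EBP words of bins higher for C/EBPα, against 0.280 at the ends. These bins, but not the ends, were chosen for few PU.1 reads at 3 h.

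The other libraries of the series, which had no part in choosing the bins, showed when each factor was present at them. Values are mean normalized reads per bin, beside a mean of 0.809 over all bins. In bins higher for C/EBPα, the C/EBPα libraries gave 4.19 at 0 h, 5.66 at 10 min, 19.4 at 30 min, 22.3 at 60 min, 17.2 at 12 h, 11.9 at 24 h, and 9.59 at 48 h, and the left-over reads of the 3 h library gave 28.1. In bins higher for PU.1, chosen for few C/EBPα reads at 3 h, C/EBPα was between 1.80 and 3.97. It gave 1.91 at 0 h, 1.80 at 10 min, 3.97 at 12 h, and 2.91 at 48 h. In like bins C/EBPα gave 5.09 at 0 h, 18.5 at 30 min, 20.01 at 3 h (left-over reads), 18.3 at 12 h, and 11.5 at 48 h. The medians were lower than the means. At 30 min the median was 7.91 in bins higher for C/EBPα and 8.70 in like bins, beside 2.31 and 3.47 at 0 h and 20.3 and 13.6 in the left-over reads at 3 h.

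The mean of C/EBPα in bins higher for C/EBPα was lower at 48 h than at 60 min, and the mean of C/EBPβ there was higher at 48 h than at 3 h. The 60 min library did not choose the bins, and C/EBPα at 48 h over 60 min was −1.22 on the log2 scale in these bins, −0.63 in like bins, and 0.24 in bins higher for PU.1. Reads were 50 bases long at 60 min and 36 at 48 h, and what this adds to the ratio was not tested. Bins chosen at 3 h leave out sites that C/EBPα gained only later, so a lower value at 48 h is favored by the choice. C/EBPα at 48 h over 3 h (left-over reads) was −1.55, −0.80, and −0.04, but the 3 h library had chosen the bins, which raises its value there. C/EBPβ at 48 h over 3 h was 0.66, 0.86, and 0.65 in the 3 classes. The median bin higher for C/EBPα did not show this rise, with 8.79 normalized C/EBPβ reads at 3 h and 8.09 at 48 h, a gap below the value of a single read. C/EBPβ was higher at 48 h in 4 of the 10 named bins of this class, which leave out bins with 8 or more C/EBPβ reads at 0 h. C/EBPβ, which forms dimers with C/EBPα and binds the same word, gave 4.12 at 0 h, 13.1 at 3 h, 10.5 at 12 h, 15.2 at 24 h, and 20.7 at 48 h in bins higher for C/EBPα. In like bins C/EBPβ gave 5.87, 10.3, 10.5, 14.6, and 18.6 at these times, and in bins higher for PU.1 between 2.30 and 3.61. At 3 h, C/EBPβ reached 10 normalized reads in 46.7% (45.8%–47.5%) of the bins higher for C/EBPα, 34.7% (33.6%–35.7%) of those with like counts, and 1.77% (1.64%–1.90%) of those higher for PU.1. The 2 antibodies read related proteins, and whether 1 of them also takes up the other protein was not tested. In bins higher for C/EBPα with the C/EBP word, C/EBPβ averaged 29.3 (29.0–29.5) at 48 h, against 16.0 (15.9–16.1) in those without it.

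PU.1 was present at its bins before induction. In bins higher for PU.1, the PU.1 libraries gave 29.3 at 0 h, 33.7 at 3 h, 32.3 at 12 h, 23.4 at 24 h, and 25.5 at 48 h. In like bins they gave 14.6, 22.8, 22.1, 16.0, and 17.1. Both classes were chosen on the 3 h library, which raises their 3 h value. In bins higher for C/EBPα, chosen for few PU.1 reads at 3 h, PU.1 gave 2.17 at 0 h, 2.94 at 3 h, 3.82 at 12 h, 3.08 at 24 h, and 3.45 at 48 h. The log2 ratio of 48 h over 0 h was 0.67 in these bins, 0.23 in like bins, and −0.20 in bins higher for PU.1. PU.1 reads at 3 h, a time nearer to 0 h than to 48 h, were kept low in the first class and high in the last. The choice can therefore favor this order, and how far it does was not tested.

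A small share of the bins higher for C/EBPα, chosen for few PU.1 reads at 3 h, had PU.1 at 48 h. PU.1 reached 10 normalized reads at 48 h in 787 of the 13772 (5.71%, 5.33%–6.12%), against 325 at 0 h (2.36%, 2.11%–2.63%). From under 5 at 0 h, 519 bins came to 10 or more at 48 h, and 119 went the other way. In like bins the numbers were 545 and 527, and in bins higher for PU.1 994 and 3109. Few PU.1 reads at 3 h were required in bins higher for C/EBPα, and many in bins higher for PU.1. The choice can thus favor gains in the former and losses in the latter, and the same counts over all bins were not made. Of the bins higher for C/EBPα, the 180 with the PU.1 word averaged 3.64 (3.31–3.99) PU.1 reads at 0 h and 8.24 (7.83–8.67) at 48 h. The 13592 without it averaged 2.15 (2.12–2.18) and 3.38 (3.35–3.41). Later PU.1 was thus higher where the bin held the PU.1 word, but most bins higher for C/EBPα stayed low in PU.1 at all times.

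**Figure D4:**
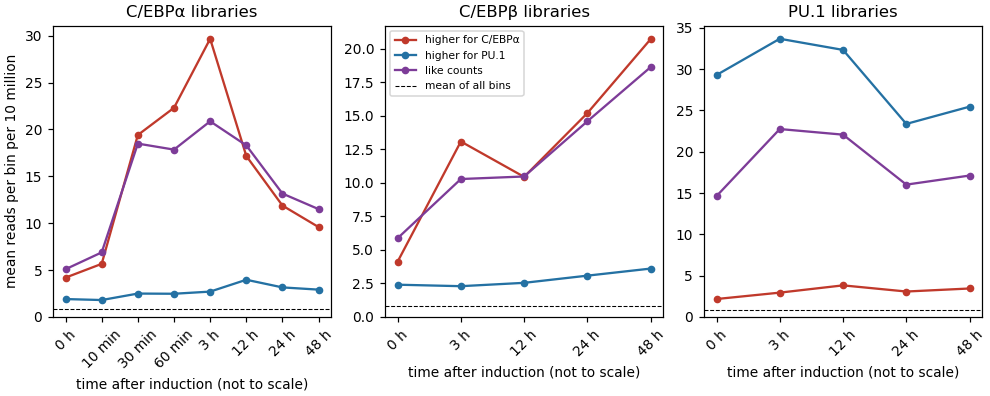
Mean reads per bin (y axis, normalized to 10000000 reads per library) in the C/EBPα, C/EBPβ, and PU.1 libraries by time after induction (x axis, not to scale), for the 3 classes of bins, with 1 library per point. The 3 h values of C/EBPα and PU.1 include the reads that chose the bins. C/EBPβ goes from 4.12 to 20.7 in bins higher for C/EBPα, and PU.1 is at 29.3 in its bins at 0 h.

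The named bins were those with the most reads in each class, 1 per nearest gene, after leaving out bins with 8 or more reads in the C/EBPβ library of 0 h. Among the 10 of the class higher for C/EBPα were bins near Slc7a5 (an amino acid transporter), Myb (a transcription factor of progenitors), Id1 (an inhibitor of E proteins), Arhgap12, Pik3ap1 (the B cell adaptor BCAP), Runx1 (a factor of blood development), 2010111I01Rik, and Agpat9, with 118 to 138 C/EBPα reads and 4 to 21 PU.1 reads. Of the 10, 7 held the C/EBP word and none the PU.1 word, and none lay within 1000 bp of a TSS. C/EBPα at 48 h was between 15.5 and 209 normalized reads in the 10 bins, with a median of 97.3.

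The Myb bin lay 14.5 kb from the TSS in an intron and had 134 C/EBPα reads (112–159) and 15 PU.1 reads (8.40–24.7). C/EBPα there was high between 30 min and 12 h, with 3.47 normalized reads at 0 h, 104 at 30 min, 125 at 60 min, 132 at 12 h, 63.5 at 24 h, and 16.8 at 48 h. C/EBPβ also rose and fell, with 7.195 at 0 h, 150 at 3 h, 56.7 at 12 h, 49.3 at 24 h, and 22.2 at 48 h. PU.1 was at 1.96 at 48 h.

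The Id1 bin, 5.51 kb from the TSS, had 132 C/EBPα reads (110–157) and 21 PU.1 reads (13.0–32.1) and differed in its timing. C/EBPα gave 6.94 at 0 h, 2.89 at 10 min, 19.8 at 30 min, 61.6 at 60 min, 364 at 12 h, and 125 at 48 h. PU.1 gave 1.45 at 0 h, 32.7 at 3 h, 58.3 at 12 h, 48.7 at 24 h, and 9.80 at 48 h. PU.1 thus came and went at this bin, which held 2 C/EBP words and the C/EBP-ATF composite but no PU.1 word.

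The Pik3ap1 bin, 33.1 kb from the TSS, had 128 C/EBPα reads (107–152) and 4 PU.1 reads (1.09–10.2), and PU.1 was at or below 6.24 normalized reads in each of its 5 libraries. It held the C/EBP word TTGCACAA at base 107 and its reverse complement TTGTGCAA at base 148. The Runx1 bin, 18.3 kb from the TSS in an intron, had 119 C/EBPα reads (98.6–142) and 8 PU.1 reads (3.45–15.8), and C/EBPα gave 32.4 normalized reads at 0 h, the highest of the 10 bins, and 99.9 at 10 min.

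Among bins higher for PU.1 the named ones lay near 9830001H06Rik, Siglecg (an inhibitory receptor of B cells), Lifr, Ube2e3, Slc22a27, Nlrp1a (an inflammasome sensor), Prg2 (a granule protein of eosinophils), Nuak2, Atp1b3, and Gm8420, with 205 to 254 PU.1 reads and 2 to 51 C/EBPα reads. Of the 10, 8 held the PU.1 word, and 2 (Lifr and Slc22a27) held neither word. The PU.1 values at 0 h were between 272 and 446 normalized reads, and at 48 h between 221 and 282, lower than at 0 h in all 10. Since 1 read was kept per position and strand, a bin could hold at most 400 reads, and these bins come nearest to that limit in the deeper libraries.

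The Siglecg bin, 15.7 kb from the TSS, had 253 PU.1 reads (223–286) and 2 C/EBPα reads (0.242–7.22), and C/EBPα was at or below 10.3 normalized reads in each of its 8 libraries. The Prg2 bin, 12.9 kb from the TSS, had 213 PU.1 reads (185–244) and 51 C/EBPα reads (38.0–67.1), the most C/EBPα among these 10. It was the only one of the 10 with both words, and C/EBPα there went from 5.78 at 0 h to 85.8 at 3 h and 51.5 at 48 h.

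Bins with like counts and the most reads of both factors lay near Idh2, Gm885, Il6 (a cytokine of macrophages), Arhgef10l, Il17ra, Plxnc1, Etv6, Mknk1, Tmem48, and Gclc. Of the 10, 5 held the C/EBP word, 3 held the PU.1 word, and 4 held neither. The Idh2 bin, printed above, had 106 C/EBPα reads (86.8–128) and 168 PU.1 reads (144–195), and the Gm885 bin 100 (81.4–122) and 171 (146–199). PU.1 was at 260 and 257 normalized reads at 0 h in these bins, and C/EBPα at 12.7 and 27.7.

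In the Il17ra bin, in an intron 10.5 kb from the TSS of the receptor for interleukin-17, C/EBPα had 91 reads (73.3–112) and PU.1 95 (76.9–116). PU.1 there gave 45.03 at 0 h, 148 at 3 h, 212 at 12 h, 153 at 24 h, and 96.0 at 48 h. The bin held a C/EBP word and no PU.1 word. In the Etv6 bin, near an ETS family repressor, both factors were high at 3 h and low at 48 h, with 79 C/EBPα reads (62.5–98.5) and 98 PU.1 reads (79.6–119) at 3 h. C/EBPα was at 19.3 and PU.1 at 28.4 normalized reads at 48 h, from 1.16 and 71.2 at 0 h.

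Genes of the pre-B and macrophage programs were then read through the bins nearest to them. A bin was assigned to the gene with the nearest TSS within 100 kb, so genes with wide surroundings collect more bins. Over all 21275 protein-coding genes, 23.0% had a bin higher for C/EBPα, 48.4% a bin higher for PU.1, and 16.4% a bin with like counts, and the median gene had 1 C/EBPα read and 8 PU.1 reads in member bins. The counts of the lists below describe their genes and were not tested.

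All 12 transcription factors of the B lineage had more PU.1 than C/EBPα reads. Of the 21275 protein-coding genes, 9632 had more PU.1 reads, 2429 had more C/EBPα reads, and 9151 had no member bin. Most genes with a member bin thus had more PU.1 reads. Of the B-lineage factors, 12 had bins higher for PU.1, 10 had bins higher for C/EBPα, and 9 had like bins, with 3588 PU.1 reads and 1376 C/EBPα reads in sum. Bach2, a repressor of B cells, had 762 PU.1 and 320 C/EBPα reads over 23 bins higher for PU.1 and 8 higher for C/EBPα. Its strongest C/EBPα bin, chr4:32521601-32521800, in an intron, had 71 C/EBPα reads (55.5–89.6) and 4 PU.1 reads (1.09–10.2). C/EBPα was at 1.16 normalized reads there at 0 h, 60.0 at 60 min, 37.7 at 12 h, and 5.15 at 48 h. Ikzf1 (Ikaros), chosen after its values were seen, had 21 bins higher for PU.1 and none higher for C/EBPα, with 725 and 167 reads.

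Of 15 genes of the pre-B receptor, recombination, and the B cell surface, 12 had bins higher for PU.1, 7 had bins higher for C/EBPα, and 6 had like bins. By reads summed over member bins, 11 of the genes had more PU.1 reads and 3 had more C/EBPα reads. The 3 were Igll1, Dntt (134 against 121 reads), and Ms4a1 (24 against 2). Igll1, which encodes the λ5 chain of the pre-B receptor, had 274 C/EBPα and 102 PU.1 reads and 6 bins higher for C/EBPα. Its strongest bin, chr16:16857201-16857400, had 78 C/EBPα reads (61.7–97.3) and 6 PU.1 reads (2.20–13.1). C/EBPα there was at 3.47 normalized reads at 0 h, 39.99 at 60 min, 46.3 at 12 h, and 3.87 at 48 h. Blnk, a signaling adaptor, had 547 PU.1 and 104 C/EBPα reads. In its strongest PU.1 bin, chr19:41070201-41070400, PU.1 had 125 reads (104–149) at 3 h and gave 253 normalized reads at 0 h, 72.7 at 12 h, and 43.1 at 48 h.

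**Figure D5:**
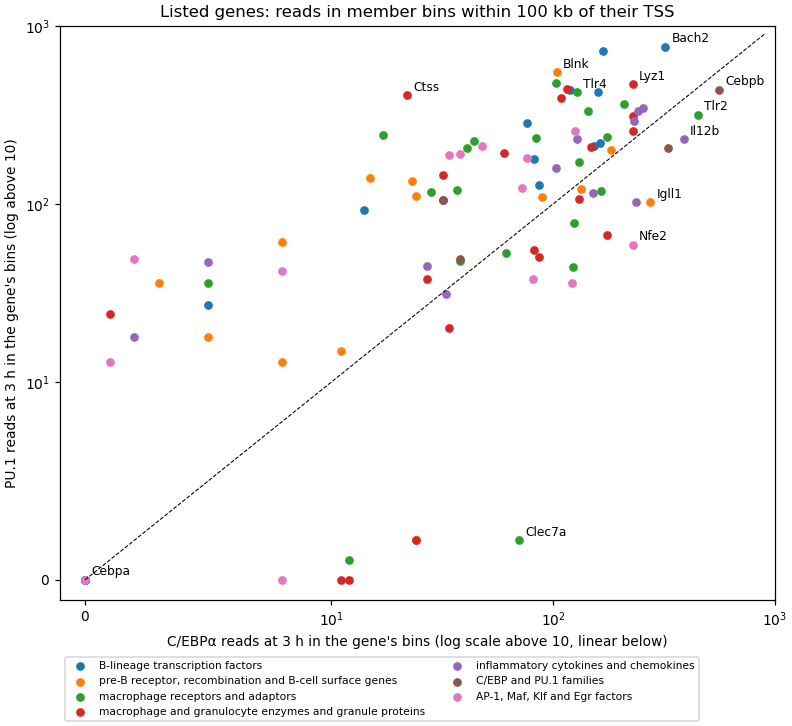
C/EBPα reads (x axis) and PU.1 reads (y axis) at 3 h in the member bins assigned to each listed gene, on scales that are linear up to 10 and logarithmic above, with the dashed line at equal reads. All 12 B-lineage transcription factors lie above the line. So do 14 of the 22 macrophage receptors and adaptors, 11 of the 19 enzymes and granule proteins, and 8 of the 14 cytokines and chemokines. Igll1, Nfe2, Il12b, Tlr2, and Cebpb are among the genes below it.

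Of 22 macrophage receptors and adaptors, 18 had bins higher for PU.1, 17 had bins higher for C/EBPα, and 12 had like bins. By reads summed over member bins, 14 of the genes had more PU.1 reads and 7 had more C/EBPα reads. Tlr2, a receptor for bacterial lipoproteins, had 448 C/EBPα and 316 PU.1 reads, with 9 bins higher for each factor. Its strongest C/EBPα bin, chr3:83689201-83689400, had 96 C/EBPα reads (77.8–117) and 6 PU.1 reads (2.20–13.1). C/EBPα was kept there, with no read at 0 h, 30.0 normalized reads at 30 min, 226 at 12 h, and 147 at 48 h, and C/EBPβ was at 222 at 48 h. Its strongest PU.1 bin, chr3:83616001-83616200, had 88 PU.1 reads (70.6–108) and no C/EBPα read (0–3.69).

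Tlr4, the receptor for endotoxin, had 423 PU.1 and 128 C/EBPα reads. Its bin 54 bp from the TSS, chr4:66488601-66488800, had 144 PU.1 reads (121–170) and 5 C/EBPα reads (1.62–11.7), and PU.1 was at 241 normalized reads at 0 h. An intron bin 24.7 kb from the TSS, chr4:66513201-66513400, had 36 C/EBPα reads (25.2–49.8) and 3 PU.1 reads (0.619–8.77). PU.1 had no read in the latter at 0 h and gave 16.3 at 12 h and 22.5 at 48 h. Mrc1, the mannose receptor, had 476 PU.1 and 103 C/EBPα reads.

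The bins of Tyrobp, which encodes the adaptor DAP12, were split as well. At chr7:31179601-31179800 PU.1 had 91 reads (73.3–112) and C/EBPα 9 (4.12–17.1), and at chr7:31184801-31185000 C/EBPα had 68 (52.8–86.2) and PU.1 15 (8.40–24.7). C/EBPα at the second bin was at 76.3 normalized reads at 60 min and 7.73 at 48 h.

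Of 19 enzymes and granule proteins of macrophages and granulocytes, 15 had bins higher for C/EBPα, 14 had bins higher for PU.1, and 11 had like bins. By reads summed over member bins, 11 of the genes had more PU.1 reads and 8 had more C/EBPα reads, among the latter Prtn3 with 67 and 175. Of the listed lysozyme genes, Lyz1 had 470 PU.1 and 228 C/EBPα reads, and Lyz2 had 38 and 27. Mmp8, a collagenase of neutrophils, had 12 bins higher for PU.1 and 2 higher for C/EBPα, with 313 and 229 reads, and Ctsb (cathepsin B) 12 and 1, with 439 and 115 reads. Mmp12, the macrophage elastase, had 5 bins higher for C/EBPα and 8 higher for PU.1. At chr9:7332001-7332200 it had 47 C/EBPα reads (34.5–62.5) and 4 PU.1 reads (1.09–10.2), and at chr9:7337201-7337400 66 PU.1 reads (51–84) and 7 C/EBPα reads (2.81–14.4). C/EBPα at the former bin was at 0 at 0 h and at 76.0 normalized reads at 48 h.

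Of 14 inflammatory cytokines and chemokines, 12 had bins higher for PU.1, 9 had bins higher for C/EBPα, and 7 had like bins, and the sums of 1948 PU.1 and 1799 C/EBPα reads were close. By reads, 8 of the genes had more PU.1 and 4 had more C/EBPα. Il12b, a subunit of interleukin-12, had 11 bins higher for C/EBPα and 5 higher for PU.1, with 388 and 230 reads. Ccl2, a chemokine for monocytes, had 346 PU.1 and 253 C/EBPα reads over 8 like bins, 3 bins higher for PU.1, and 1 higher for C/EBPα. Cxcl2 and Cxcl10 had no member bin.

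Of 14 genes of AP-1, Maf, Klf, and Egr factors, 11 had bins higher for PU.1, 7 had bins higher for C/EBPα, and 5 had like bins. By reads, 9 of the genes had more PU.1 and 4 had more C/EBPα. Nfe2, a hematopoietic leucine zipper factor, had 229 C/EBPα and 59 PU.1 reads. Its promoter bin, 67 bp from the TSS, had 110 C/EBPα reads (90.4–133) and 21 PU.1 reads (13.0–32.1) but also 21 reads in the C/EBPβ library of 0 h. Fos had 258 PU.1 and 126 C/EBPα reads. At chr12:86831401-86831600, 16.7 kb from the Fos TSS, C/EBPα had 23 reads (14.6–34.5) and PU.1 3 (0.619–8.77), and at chr12:86803801-86804000 PU.1 had 33 (22.7–46.3) and C/EBPα 3 (0.619–8.77).

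Cd40, a costimulatory receptor of B cells and macrophages, had 125 PU.1 and 58 C/EBPα reads, and Tgfbr2, a TGF-β receptor, 515 and 309. At chr2:164882001-164882200, 920 bp from the Cd40 TSS, PU.1 had 34 reads (23.5–47.5) and C/EBPα 2 (0.242–7.22). Tgfbr2 had a like bin 3.12 kb from the TSS, with 40 C/EBPα reads (28.6–54.5) and 54 PU.1 reads (40.6–70.5). PU.1 in it was at 16.0 normalized reads at 0 h, 84.2 at 3 h, and 22.5 at 48 h, so that most PU.1 there was seen at 3 and 12 h (66.9).

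Of the genes of the factors themselves, Cebpb and Sfpi1 had bins of every class. For Cebpb, Sfpi1, Il1b, and Ctsd the bins with the most C/EBPα reads, and the neighboring PU.1 bin of Il1b, are printed to show how the words lie in them, again from the + strand of mm9 with the 10 words in capitals.
Cebpb chr2:167579601-167579800: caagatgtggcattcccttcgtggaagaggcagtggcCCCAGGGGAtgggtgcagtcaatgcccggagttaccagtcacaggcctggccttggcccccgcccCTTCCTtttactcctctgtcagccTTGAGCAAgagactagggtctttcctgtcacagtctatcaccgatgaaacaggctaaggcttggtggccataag
Sfpi1 chr2:90923201-90923400: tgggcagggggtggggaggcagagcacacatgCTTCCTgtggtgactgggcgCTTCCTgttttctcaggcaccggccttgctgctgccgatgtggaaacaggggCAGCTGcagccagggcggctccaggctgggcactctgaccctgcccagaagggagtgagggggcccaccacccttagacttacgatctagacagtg
Il1b chr2:129199001-129199200: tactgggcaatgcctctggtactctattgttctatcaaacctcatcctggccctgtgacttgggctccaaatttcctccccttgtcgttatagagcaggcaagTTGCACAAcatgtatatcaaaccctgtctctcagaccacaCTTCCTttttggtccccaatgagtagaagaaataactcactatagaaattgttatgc
Il1b chr2:129199201-129199400: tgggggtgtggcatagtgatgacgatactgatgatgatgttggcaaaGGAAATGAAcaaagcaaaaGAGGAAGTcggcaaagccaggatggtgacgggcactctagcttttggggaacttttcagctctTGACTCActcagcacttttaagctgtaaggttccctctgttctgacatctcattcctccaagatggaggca
Ctsd chr7:149585201-149585400: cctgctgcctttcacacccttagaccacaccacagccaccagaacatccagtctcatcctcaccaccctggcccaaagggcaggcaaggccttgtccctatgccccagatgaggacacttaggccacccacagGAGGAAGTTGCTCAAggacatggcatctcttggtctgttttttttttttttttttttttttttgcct
Of these 5 bins, the Cebpb bin was higher for C/EBPα, the Sfpi1 bin and the first Il1b bin had like counts, the second Il1b bin was higher for PU.1, and the Ctsd bin lay between.

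Cebpb, the gene of C/EBPβ, had 562 C/EBPα and 438 PU.1 reads, the most C/EBPα reads of any listed gene. It had 11 bins higher for C/EBPα, 9 higher for PU.1, and 7 like bins. The printed bin, 65.3 kb from the TSS, had 94 C/EBPα reads (76.0–115) and 12 PU.1 reads (6.2–21), and its C/EBP word lay at base 127. A like bin 71.3 kb from the TSS, chr2:167585601-167585800, had 71 C/EBPα reads (55.5–89.6) and 63 PU.1 reads (48.4–80.6). PU.1 in this bin gave 32.0 normalized reads at 0 h, 98.2 at 3 h, 133 at 12 h, 124 at 24 h, and 132 at 48 h, and C/EBPβ 245 at 48 h. This bin had 14 reads in the C/EBPβ library of 0 h.

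Sfpi1, the gene of PU.1, had 328 C/EBPα and 207 PU.1 reads. The printed bin is 754 bp from the nearest of several annotated TSSs of the gene. Other TSSs of the gene lie farther along the chromosome, 48 bp from chr2:90936201-90936400 and 36 bp from chr2:90936801-90937000. The paper shows binding at the promoter of this gene and at an enhancer upstream of it, the URE. The printed bin may therefore be an enhancer rather than a promoter, which was not tested. The printed bin had 89 C/EBPα reads (71.5–110) and 60 PU.1 reads (45.8–77.2). PU.1 in it gave 110 normalized reads at 0 h, 93.5 at 3 h, 176 at 12 h, and 105 at 48 h, and C/EBPα gave 32.4 at 0 h and 223 at 12 h. It had 16 reads in the C/EBPβ library of 0 h. It held no C/EBP or PU.1 word, but the ETS core at bases 33 and 53. Cebpa, the gene of C/EBPα, had no member bin.

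The Il1b bins lay side by side, 2.23 and 2.43 kb from the TSS of the gene of interleukin-1β. The first had 68 C/EBPα reads (52.8–86.2) and 43 PU.1 reads (31.1–57.9) and held the C/EBP word TTGCACAA at base 104. The second had 23 C/EBPα reads (14.6–34.5) and 118 PU.1 reads (97.7–141) and held the PU.1 word at base 67 and the AP-1 word at base 130. PU.1 in the second bin gave 125 normalized reads at 0 h, 184 at 3 h, and 220 at 48 h.

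In the Ctsd bin, 11.4 kb from the TSS of the gene of cathepsin D, the PU.1 word began at base 134 and the C/EBP word at base 141, so that they share 1 base. C/EBPα had 39 reads (27.7–53.3) and PU.1 13 (6.92–22.2) at 3 h. PU.1 gave 14.5 normalized reads at 0 h, 20.3 at 3 h, 44.9 at 12 h, 59.5 at 24 h, and 54.9 at 48 h. C/EBPα gave 4.62 at 0 h, 43.2 at 60 min, 97.7 at 12 h, and 101 at 48 h.

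Some member bins already had reads in the C/EBPβ library of uninduced cells. At least 8 such reads were found in 335 bins higher for C/EBPα (2.43%), 320 like bins (4.11%), and 34 bins higher for PU.1 (0.0830%), and their part in the values of these bins was not tested. Without them the log2 ratio of PU.1 at 48 over 0 h in bins higher for C/EBPα was 0.69. Of the PU.1 reads, 58766 (0.916%) had the position and strand of a C/EBPα read at 3 h.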

How the data were processed

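The authors deposited 1 list of aligned read positions (BED, mm9) per library, which gives positions and strands and no other unit of measurement. The reads had been aligned to mm9 with ELAND or Bowtie, keeping unique matches without mismatches and removing identical reads. The submitters' processing notes name Bowtie and HOMER, and their versions are not given in the sources used here. From these deposited files, 1 read was kept per position and strand, which removed 2.52% of the C/EBPα reads at 3 h, so that a bin could hold at most 400 reads. The 5′ ends were moved 75 bp inward, the C/EBPα reads were thinned at random to 6414863, and reads were counted in 200-bp bins of chromosomes 1 to 19. Values at other times were scaled to 10000000 reads per library (normalized reads). The 18 libraries held between 2824293 and 24236183 reads. Reads were 50 bases long in the C/EBPα libraries of 10, 30, and 60 min, 40 in the C/EBPβ libraries, and 36 in the others.

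Words were searched in the mm9 sequence on both strands in bins with full sequence (11968129), and shares at the same GC content weight all bins by the GC content of the class. Genes and TSSs were those of GENCODE vM1 protein-coding genes. A bin counted for the gene with the nearest TSS, up to 100 kb away. The nearest gene need not be the one regulated.

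Named were the 10 strongest bins of each class (for like bins by the smaller count), up to 5 genes per list with the most reads or bins, and the loci that the study shows. Some of these bins are not reported here. The bins, lists, and rules were chosen with earlier results of these data known. With 1 library per group no test was made. Intervals are 95% exact Poisson or Clopper-Pearson intervals and cover counting error only. The counting was tested on simulated data. Alternatives were another minimum, fold, shift, bin size, bin start, draw, or scaling, all deposited reads, merged bins, and bins left out. Python 3.11.15, NumPy 2.4.6, pandas 2.3.3, and SciPy 1.17.1 were used.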

Additional observations from a re-analysis of the deposited data

Results flagged for a closer look

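In bins higher for C/EBPα, the means of the 2 C/EBP factors differed in sign between 3 and 48 h. The C/EBPα mean at 48 h over that of the reads left over at 3 h was −1.55 on the log2 scale, and that of C/EBPβ was 0.66, which is a difference of −2.22. The 3 h C/EBPα library had chosen these bins, which raises its 3 h value and enlarges this difference. Against 60 min, a library that did not enter the choice, C/EBPα at 48 h was −1.22. Reads were 50 bases long at 60 min and 36 at 48 h, and the effect of this was not tested. Sites that C/EBPα gained only after 3 h are not among these bins, so the choice favors a lower value at 48 h here as well. The signs were the same in like bins (−0.80 and 0.86), and C/EBPβ was 0.65 in bins higher for PU.1. By the median per bin C/EBPα was lower at 48 h, at 3.87 against 20.3 normalized reads (left-over reads). The C/EBPβ medians, 8.09 at 48 h and 8.79 at 3 h, differ by less than the value of a single read and show no direction. C/EBPβ was above its 3 h value in 4 of the 10 named bins of this class, which leave out bins with 8 or more C/EBPβ reads at 0 h. With 1 library per factor and time, the difference was not tested.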

How the results depend on the processing

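Over 13 alternatives and 102 values, 72 stayed within the limits set for them, and 30 did not. With a minimum of 12 reads, 8397 bins were higher for C/EBPα, 25241 were higher for PU.1, and 3830 had like counts, the C/EBP word was in 38.8% of the first and the PU.1 word in 20.9% of the second, and the log2 ratio of PU.1 at 48 over 0 h in bins higher for C/EBPα was 0.73. With touching bins merged, these values were 8812, 26087, 4468, 47.9%, 28.6%, and 0.73. With bins of 400 bp, 13815 had like counts, the words were in 43.6% and 24.8%, the log2 ratio was 0.54, and 12.9% of the bins higher for PU.1 lay within 1000 bp of a TSS. With an 8-fold difference, the words were in 37.8% and 20.5%, and 8.34% and 12.9% of the bins higher for C/EBPα and PU.1 lay within 1000 bp of a TSS. With the 4-fold difference and an exact 95% interval of the share required as well, 13.8% of the bins higher for PU.1 lay within 1000 bp of a TSS. With a shift of 50 bp the PU.1 word was in 17.7%, and with 100 bp the words were in 34.8% and 19.6%. With equal reads outside member bins, the C/EBP word was in 36.9% and the log2 ratio was 0.69. Without bins with 8 or more C/EBPβ reads at 0 h, the log2 ratio was 0.69. Without bins near a TSS, the PU.1 word was in 20.2% and the log2 ratio was 0.70. With the 8-fold difference, 9457 bins were higher for C/EBPα and 30871 for PU.1. The number of bins per class thus depends on the minimum, fold, bin size, and merging. Larger or stronger units hold each word more often, and the causes of the other shifts were not tested. No paired analysis was possible because each factor and time point had 1 library. The spread between libraries, the C/EBPβ antibody's own selectivity, and the difference in library preparation could not be measured here.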

Other observations

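Among the bins higher for C/EBPα, 10 with the most PU.1 at 48 h from under 5 normalized reads (scaled to 10000000 per library) at 0 h were looked at after their values had been seen. They lay near Lif, Gm17728, Megf9, Olfr460, Etv4, Dlx1, Heca, Thap1, Sntb2, and Fam107b. The bin near Lif, the gene of leukemia inhibitory factor, lay 27603 bp from the TSS and had 62 C/EBPα and 12 PU.1 reads at 3 h. PU.1 there was at 1.45 normalized reads at 0 h, 34.4 at 12 h, 45.1 at 24 h, and 59.8 at 48 h, and at 48 h C/EBPα was at 111 and C/EBPβ at 166. The Fam107b bin had 105 C/EBPα and 12 PU.1 reads at 3 h, and PU.1 was highest at 12 h, with 73.6, against 20.7 at 24 h and 47.0 at 48 h. The Heca bin, in an intron, had 20 and 5 reads, and C/EBPα was at 11.6 and PU.1 at 51.9 at 48 h, so that PU.1 was the higher of the 2 there. These bins were selected for this pattern, so the values are a description.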
